A study of Mus musculus with 60 samples.

Results

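The genes that bring pyruvate into the mitochondrion and control its conversion to acetyl-CoA were followed in muscle and fat of mice on 2 diets, with or without wheel running. The 10 genes are the kinases Pdk1, Pdk2 and Pdk4, the enzyme subunits Pdha1, Pdhb, Dlat and Pdhx, the phosphatase Pdp1, and the carriers Mpc1 and Mpc2. The members were taken by symbol from a table of 54352 genes, and 10 of 10 were present. The libraries were 60 bulk 3′ digital gene expression RNA-seq libraries (reads are counted near the 3′ end of each transcript) from 20 C57BL/6JN mice, each of which gave triceps muscle, subcutaneous white fat (scWAT) and visceral white fat (vWAT). In each tissue 5 mice formed each of 4 groups: chow sedentary and chow trained mice ate standard chow with 10% of its energy as fat, and HFD sedentary and HFD trained mice ate a high-fat diet with 60%. The diets lasted 6 weeks, and trained mice had voluntary wheel running for the last 3 weeks. Mice of all 4 groups are labelled 12 weeks old, and tissue was taken after 6 hours without food and 24 hours with the wheels locked. The labels name no transgene or deletion in any group.

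Pyruvate crosses the inner mitochondrial membrane through a carrier built from Mpc1 and Mpc2. The pyruvate dehydrogenase complex then converts it to acetyl-CoA: Pdha1 and Pdhb form the decarboxylating E1 enzyme, Dlat is the acetyltransferase core, and Pdhx is the protein that holds the lipoamide dehydrogenase Dld in the complex. The Pdk kinases phosphorylate Pdha1 and switch the complex off, and the Pdp1 phosphatase removes that phosphate. Pdk4 is the kinase best known for its induction in muscle by fasting and fat use, and Pdk1 is known as a target of hypoxia-inducible factor.

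Total counts ran from 505336 to 720220 per library in scWAT, from 580173 to 689060 in vWAT and from 651030 to 744581 in triceps. Levels are given as CPM, the count scaled to a library total of 1000000, and 3 counts, the limit that a count of 0 allows, correspond to 4.03 to 5.94 CPM. All 10 genes passed the filter on low counts in triceps, and 9 of 10 passed in each fat depot, where Pdp1 was too low to test. The tissues carried the markers of their labels: the 10 adipocyte genes of the marker list held 3.31% to 7.01% of counts in the fat libraries with none of them at 0, and 15 fast-muscle genes held 9.41% to 19.9% of counts in triceps. Some fat libraries stood apart: 6 of 20 scWAT libraries held over 1% muscle-gene counts (up to 10.1%), 6 of 20 scWAT libraries had over 100 counts of lymphocyte genes and 3 of 20 vWAT libraries had over 100 counts of intestinal genes. In bulk tissue, fewer cells of a type and less RNA per cell cannot be told apart. Differences were tested per tissue with edgeR's quasi-likelihood test, adjusted by Benjamini-Hochberg over all genes tested, and a gene was called at an adjusted p below 0.05. Differences are log2 fold changes on the normalised (TMM) scale of that test, with their standard error (SE). Against scaling by total counts this scale moved the median gene by −0.27 to −0.18 in the diet comparisons of both fats, by 0.12 for training on chow in scWAT and by 0.13 and 0.19 for training on chow and HFD in triceps. In these fits of each tissue alone, no member changed direction between scalings where it was called. The fit of all tissues was not repeated with total counts. Between triceps and fat the scalings can differ in direction, as given below. In mm10, Pdk4 (ENSMUSG00000019577) lies at chr6:5483351-5496309, Pdk1 (ENSMUSG00000006494) at chr2:71873224-71903858, Pdha1 (ENSMUSG00000031299) at chrX:160122209-160138413 and Mpc1 (ENSMUSG00000023861) at chr17:8282904-8297661. Mpc1 overlaps an antisense gene (4930506C21Rik, 732 counts in all libraries), and the sources used here do not give the strand setting of the counting.

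The promoters of the genes that the results turn on are shown because Pdk4 fell and Pdha1 and Pdhx rose with training on HFD in triceps, and Mpc1 was lower on HFD in fat. RefSeq windows (build GRCm38.p6) from 250 bases before to 50 bases after the start were at hand for 9 of the 10 genes, in 12 windows. Capitals mark CCAAT boxes and GGGCGG (SP1) boxes in either orientation.
Pdk4, chr6:5496229-5496528, minus strand: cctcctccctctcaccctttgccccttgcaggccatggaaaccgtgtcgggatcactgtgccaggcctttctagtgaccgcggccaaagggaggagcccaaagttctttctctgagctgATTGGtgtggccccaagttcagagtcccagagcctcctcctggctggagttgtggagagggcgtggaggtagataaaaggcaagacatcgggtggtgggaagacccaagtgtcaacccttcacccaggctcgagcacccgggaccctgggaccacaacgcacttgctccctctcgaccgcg
Pdha1, chrX:160138381-160138680, minus strand: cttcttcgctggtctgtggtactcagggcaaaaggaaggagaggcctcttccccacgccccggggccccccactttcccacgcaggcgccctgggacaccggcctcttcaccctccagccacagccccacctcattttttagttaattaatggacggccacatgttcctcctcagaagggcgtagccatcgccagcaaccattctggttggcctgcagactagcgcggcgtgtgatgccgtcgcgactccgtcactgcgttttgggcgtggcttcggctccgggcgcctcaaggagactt
Pdhx, chr2:103073464-103073763, minus strand: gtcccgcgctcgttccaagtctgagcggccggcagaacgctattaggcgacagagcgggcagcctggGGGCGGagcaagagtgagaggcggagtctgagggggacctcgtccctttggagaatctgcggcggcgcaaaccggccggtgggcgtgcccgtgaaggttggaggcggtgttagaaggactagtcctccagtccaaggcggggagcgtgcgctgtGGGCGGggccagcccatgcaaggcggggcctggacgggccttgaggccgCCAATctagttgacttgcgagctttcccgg
Mpc1, chr17:8283537-8283836, plus strand: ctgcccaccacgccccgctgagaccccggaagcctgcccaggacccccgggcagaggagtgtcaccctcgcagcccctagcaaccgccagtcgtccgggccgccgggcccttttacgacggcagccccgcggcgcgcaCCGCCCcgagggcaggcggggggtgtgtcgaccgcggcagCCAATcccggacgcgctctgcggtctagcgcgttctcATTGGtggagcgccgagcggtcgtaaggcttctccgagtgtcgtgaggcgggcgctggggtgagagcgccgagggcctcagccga

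On both strands, GGGCGG was found in windows of 6 members (Pdk1, Pdhb, Dlat, Pdhx, Mpc1 and Mpc2), and in 35.658% of the 32851 windows searched. CCAAT was found in windows of 6 members (Pdk2, Pdk4, Pdhb, Pdhx, Mpc1 and Mpc2), and in 37.408% of the windows searched. The search left out a chromosome that carries no member. Pdk1, Pdk2 and Mpc1 have more than 1 window, so counts of members and shares of windows are unlike measures. The window of Pdk4 had 1 CCAAT box, at −131 from the start in reverse orientation, and no GGGCGG. The window of Pdhx had GGGCGG at −183 and −29 and CCAAT at 21, and that of Pdha1 had neither. Of the other motifs searched, the nuclear receptor motif AGGTCA (16.255% of windows) and the ETS motif CCGGAAG (8.858%) were each found only in windows of Mpc1 and TGTTCT (18.974%) only in a window of Pdk1. The forkhead motif GTAAACA (3.65%), TCAAGGTCA of the estrogen-related receptors (0.423%), the palindrome of NRF1 (0.971%), AAGATGGC of YY1 (2.749%) and TATAAA (13.616%) were in no member's window. AGGTCA is contained in TCAAGGTCA. These are matches of letters in short windows and describe no binding.

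In sedentary chow-fed mice the kinases Pdk4 and Pdk2 were higher in triceps than in both fats, and Pdk1 was lower in triceps than in scWAT. Pdk4 stood at 717, 743, 931, 951 and 680 CPM in the 5 triceps libraries, at 272, 232, 278, 396 and 328 CPM in scWAT and at 27.6, 44.0, 29.2, 23.4 and 54.2 CPM in vWAT. The 3 tissues did not overlap for Pdk4, with triceps above scWAT and scWAT above vWAT. In a fit of all 60 libraries with the animal as a block, Pdk4 was higher in triceps than in scWAT by 2.34 (log2, SE 0.32, adjusted p = 1.76e-07) and higher than in vWAT by 5.47 (SE 0.39, adjusted p = 4.23e-14), by edgeR's quasi-likelihood test. In these comparisons 7 of the 9 members that passed the filter on low counts in each tissue were called each time, where 59.3% and 58.6% of the 8501 genes tested were called and the median gene lay at −0.29 and −0.23. Pdk2, the kinase expressed in most tissues, was also higher in triceps, by 1.59 (SE 0.24, adjusted p = 2.01e-07) over scWAT and by 2.43 (SE 0.26, adjusted p = 1.45e-11) over vWAT. Pdk1 was the kinase that was lower in triceps than in scWAT, by −1.21 (SE 0.27, adjusted p = 1.56e-04), and its difference from vWAT was 0.04 (SE 0.30, adjusted p = 0.940). In mean CPM, Pdk1 was at 11.4 in triceps and 22.0 in vWAT, so the latter value holds on the TMM scale only.

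The phosphatase gene Pdp1 passed the filter on low counts in triceps alone. Its counts ran from 19 to 31 in sedentary chow-fed triceps, from 3 to 9 in scWAT and from 0 to 8 in vWAT, so that most fat values lay near the limit of detection. For that reason no fold or test between tissues is given for Pdp1. The carriers parted: Mpc2 was higher in triceps by 1.53 (SE 0.18, adjusted p = 3.98e-10) than in scWAT and by 1.29 (SE 0.18, adjusted p = 2.14e-08) than in vWAT, whereas Mpc1 differed by −0.03 (SE 0.20, adjusted p = 0.902) and 0.42 (SE 0.20, adjusted p = 0.0631). In mean CPM, Mpc1 was at 1422 in triceps, 2980 in scWAT and 2244.5 in vWAT. Its values near 0 therefore hold on the TMM scale only. On the TMM scale, the subunits Pdha1, Pdhb and Pdhx were higher in triceps than in both fats. The differences were 0.66 to 0.75 over scWAT and 0.98 to 1.39 over vWAT. In mean CPM, triceps lay below scWAT for Pdha1 (445 against 528), Pdhb (451 against 583) and Pdhx (55.9 against 66.8). Their direction against scWAT therefore depends on the scaling. Pdhx also stood slightly below vWAT in mean CPM (55.9 against 56.9). Against scWAT, Pdhb lost its call without the animal of chow sedentary replicate 2 (adjusted p = 0.0599) and Pdhx without that of replicate 5 (adjusted p = 0.0572). Dlat was higher in triceps than in vWAT (1.25, SE 0.25, adjusted p = 2.28e-05) and did not pass against scWAT (−0.07, SE 0.23, adjusted p = 0.800). Its mean CPM was 49.0 in triceps and 98.3 in scWAT. Between the fats, where 11.7% of genes were called, 5 members were lower in vWAT than in scWAT: Pdk4 by −3.13 (SE 0.37), Dlat by −1.32 (SE 0.24), Pdk1 by −1.25 (SE 0.24), Pdk2 by −0.84 (SE 0.27) and Pdha1 by −0.64 (SE 0.17). Their adjusted p values ran from 3.17e-07 for Pdk4 to 0.0347 for Pdk2. The call of Pdk2 was lost without chow sedentary replicate 1, 2, 4 or 5 (adjusted p up to 0.151) and that of Pdha1 without replicate 3 or 4 (up to 0.0799).

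**Figure D1:**
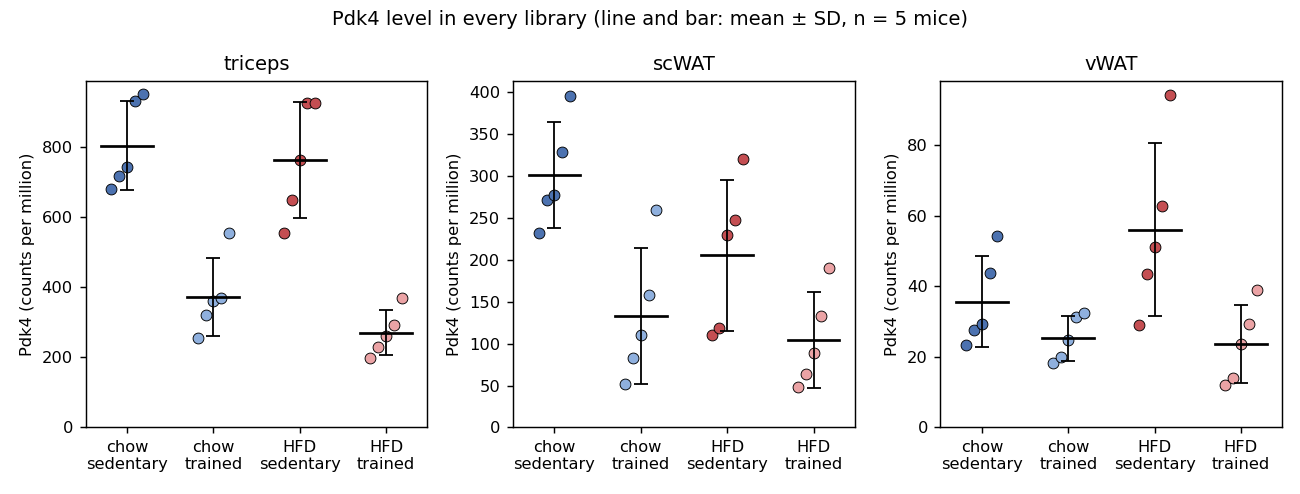
Pdk4 in CPM (y axis, linear, a separate scale for each tissue) in each library of triceps, scWAT and vWAT, by diet and activity (x axis). Points are mice, lines and bars are the mean ± SD of 5 mice. In triceps the sedentary libraries lie between 556 and 951 CPM and the trained ones between 199 and 553 CPM.

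Pdk4 was lower in triceps of wheel-running mice under both diets. On chow, Pdk4 was at 362, 322, 553, 254 and 370 CPM in the 5 trained mice, against 717, 743, 931, 951 and 680 CPM in the 5 sedentary mice. Every trained library lay below every sedentary one. Pdk4 fell by 0.96 on the log2 scale (SE 0.21), to 0.515 of its sedentary level, with an adjusted p of 0.0334 by edgeR's quasi-likelihood test. On HFD, Pdk4 was at 927, 556, 650, 762 and 926 CPM in sedentary mice and at 199, 262, 229, 293 and 368 CPM in trained mice. The groups again did not overlap. Pdk4 fell by 1.32 (SE 0.21), to 0.402 of its level, with an adjusted p of 9.08e-04. The difference of both training effects, −0.36 (SE 0.29, adjusted p = 0.986), did not pass the test of the diet by training interaction.

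Subunit genes of the dehydrogenase moved the other way in triceps of HFD-fed mice. Pdha1, the catalytic subunit that the kinases phosphorylate, was at 358, 455, 439, 448 and 464 CPM in sedentary and at 566, 583, 542, 613 and 654 CPM in trained HFD-fed mice. All 5 trained libraries lay above all 5 sedentary ones. Pdha1 rose by 0.63 (log2, SE 0.11, adjusted p = 5.26e-04, edgeR), to 1.55 times its level. Pdhx was at 48.5, 66.8, 81.7, 52.4 and 45.4 CPM in sedentary and at 81.4, 94.1, 81.4, 89.9 and 126 CPM in trained mice. The sedentary replicate 3 reached the lowest trained values, and the groups overlapped there. Pdhx rose by 0.86 (SE 0.17, adjusted p = 0.00108, edgeR). Pdhb, by 0.40 (SE 0.13, adjusted p = 0.0535), and Mpc2, by 0.36 (SE 0.11, adjusted p = 0.0502), did not pass.

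On chow, the subunit that passed in triceps was Dlat, the core acetyltransferase. It was at 40.8, 45.3, 52.6, 58.4 and 47.7 CPM in sedentary and at 74.0, 75.7, 44.8, 75.8 and 94.0 CPM in trained mice. Trained replicate 3 lay within the sedentary range and the other 4 trained mice lay above it. Dlat rose by 0.69 (SE 0.17, adjusted p = 0.0356, edgeR). Pdhx did not overlap between these groups (40.8 to 63.2 CPM sedentary, 63.3 to 85.7 CPM trained) and was not called (0.57, SE 0.17, adjusted p = 0.0955). Of all 4410 genes tested in triceps, 4.38% did not overlap for training on chow and 6.94% for training on HFD. Pdha1 on chow was at 0.32 (SE 0.11, adjusted p = 0.187).

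Of the 10 members, 2 were called for training on chow, 1 higher and 1 lower, where 0.748% of 4410 genes were called (0.454% higher, 0.295% lower). For training on HFD 3 were called, 2 higher and 1 lower, where 5.35% of genes were called (3.33% higher, 2.02% lower). Each group enters 1 diet and 1 training comparison, so the contrasts share libraries. The 3 calls on HFD were kept in each of the 20 fits that left out 1 triceps library and under each of 7 other settings. On chow, Pdk4 lost its call without chow sedentary replicate 1, 4 or 5 or chow trained replicate 1, 2, 4 or 5 (log2 −1.005 to −0.84, adjusted p from 0.0563 to 0.0954). Dlat lost its call without chow sedentary replicate 1, 2, 4 or 5, chow trained replicate 1, 2, 4 or 5 or HFD trained replicate 1 (0.62 to 0.74, adjusted p from 0.0524 to 0.115). Neither labels nor headers name a sequencing or extraction batch. Stretches of consecutive library codes, with limits placed where reads of other organs changed, were therefore used as inferred runs. The inferred run of 12 triceps libraries holds all 4 groups. It has 2 chow sedentary, 3 chow trained, 4 HFD sedentary and 3 HFD trained libraries. On chow, Pdk4 was at −0.85 there (adjusted p = 0.433, edgeR) and Dlat at 0.57 (adjusted p = 0.472), and no member was called. So few chow-fed mice limit what could be detected. Within the same run Pdk4, Pdha1 and Pdhx stayed called for training on HFD, and Pdhb was called as well. Over all genes, no alternative called fewer than 14 for training on chow and 121 on HFD. The summed share of 15 fast-muscle genes was 9.41% to 14.3% in HFD trained and 13.9% to 19.9% in HFD sedentary triceps, and 11.9% to 16.5% against 15.1% to 18.7% on chow; its part in these changes was not tested.

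**Figure D2:**
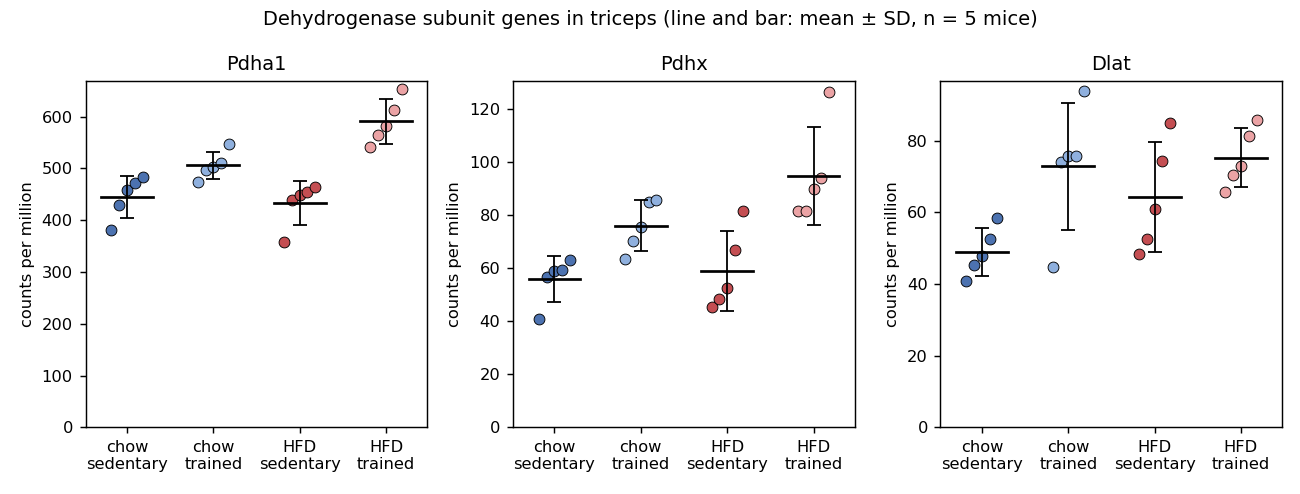
Pdha1, Pdhx and Dlat in triceps in CPM (y axis, from 0) by diet and activity (x axis). Points are mice, lines and bars are the mean ± SD of 5 mice. The HFD trained libraries of Pdha1 (542 to 654 CPM) lie above all HFD sedentary ones (358 to 464 CPM), and Pdhx and Dlat overlap between trained and sedentary mice in part.

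The other members did not pass in either training comparison of triceps. Pdk2 was at 72.7 ± 13.6 CPM (SD, n = 5) in chow sedentary, 72.9 (range 51.8 to 91.2) in chow trained, 78.9 ± 24.8 in HFD sedentary and 52.3 ± 7.43 in HFD trained mice. Its value for training on HFD was −0.40 (SE 0.18, adjusted p = 0.201, edgeR). Pdk1 had 5 to 22 counts per triceps library, which limits what could be detected, and stood at 0.72 (SE 0.30, adjusted p = 0.303) on chow and 0.50 (SE 0.28, adjusted p = 0.328) on HFD. Pdp1 stood at 0.34 for both diets (SE 0.22 and 0.22, adjusted p = 0.626 and 0.432). Mpc1 was the steadiest member in this muscle, with a coefficient of variation of 8.25% over the 20 libraries and a range of 1218 to 1720 CPM. For Mpc1 the training values were 0.14 (SE 0.11, adjusted p = 0.727) and 0.24 (SE 0.11, adjusted p = 0.211).

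Diet called no member in triceps: in the comparisons of HFD with chow, 0% of 4410 genes were called in sedentary and in trained mice by edgeR, with 198 and 308 genes at an unadjusted p under 0.05. DESeq2 called 0 genes in both as well, and edgeR without a filter on low counts called 24 and 2. Pdk4 was at −0.14 (SE 0.20, adjusted p = 0.975) in sedentary mice and −0.50 (SE 0.21, adjusted p = 0.660) in trained mice. The subunits and carriers lay between −0.11 and 0.32 in both comparisons.

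The kinase transcripts were also set against the subunit transcripts within each library, by dividing the summed CPM of Pdk1, Pdk2 and Pdk4 by the summed CPM of the 4 subunits. The 3′ counts are not scaled for transcript length, so this ratio says nothing of protein amounts and is read only between groups of 1 tissue, as a description. In triceps it was 0.736 to 1.10 in chow sedentary (median 0.916) and 0.642 to 1.24 in HFD sedentary mice (median 0.759), against 0.300 to 0.513 (median 0.397) and 0.218 to 0.331 (median 0.255) in their trained counterparts. Every trained library lay below every sedentary library. Pdk4 made up 85.0% to 92.2% of the kinase counts in sedentary and 74.6% to 89.0% in trained triceps. In scWAT the ratio was 0.177 to 0.506 (chow sedentary), 0.0990 to 0.336 (chow trained), 0.204 to 0.582 (HFD sedentary) and 0.146 to 0.188 (HFD trained). The highest ratios of chow trained (replicate 3) and HFD sedentary mice (replicate 4) came from the libraries with the most muscle-gene counts (10.1% and 7.19%). The part of those counts in the ratio was not tested. The next chow trained value was 0.164. The HFD groups of scWAT did not overlap and the chow groups did. Among the libraries with at most 1% muscle-gene counts, the HFD sedentary ratios were 0.204 to 0.308, above HFD trained. The 2 chow trained ratios left, 0.113 and 0.1399, lay below the chow sedentary ones. No test was made on these few libraries. In vWAT it was 0.111 to 0.220 in HFD sedentary and 0.0609 to 0.109 in HFD trained mice, which did not overlap, and 0.0739 to 0.176 and 0.0687 to 0.144 on chow, which did.

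**Figure D3:**
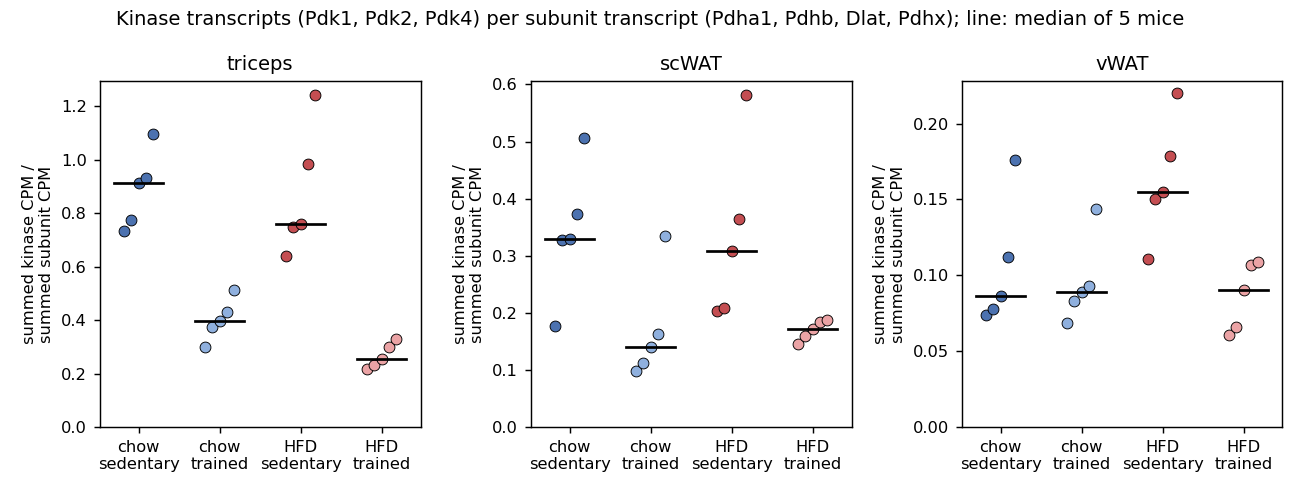
Summed CPM of Pdk1, Pdk2 and Pdk4 divided by that of Pdha1, Pdhb, Dlat and Pdhx (y axis, no unit, a separate scale for each tissue) by diet and activity (x axis). Points are mice and lines are medians of 5 mice. In triceps the medians are 0.916 and 0.759 in sedentary and 0.397 and 0.255 in trained mice.

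In both fats Pdk1, Pdha1 and Mpc1 were lower on HFD, in sedentary and in trained mice. Pdhb, Dlat and Mpc2 were called in some of these 4 comparisons, and Pdhx, Pdk2 and Pdk4 in none. In scWAT of sedentary mice, 5 of the 9 members tested were lower on HFD and none was higher, where 6.35% of 7069 genes were called (2.8% lower). Pdk1 was at 40.2, 55.4, 47.2, 62.7 and 43.6 CPM on chow and at 10.3, 25.5, 9.50, 9.70 and 9.36 CPM on HFD. The groups did not overlap, as for 6.79% of all genes tested, and 4 of the 5 HFD libraries lay between 9.36 and 10.3 CPM. Pdk1 fell by 2.11 (log2, SE 0.26, adjusted p = 1.25e-05, edgeR), to 0.231 of its chow level. These HFD values rest on 6 to 18 counts each.

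Among the carriers, Mpc1 was at 2642, 1906, 4907, 3579 and 1866 CPM on chow and at 1720, 1461, 1291, 1135 and 1277 CPM on HFD in scWAT of sedentary mice. The chow libraries varied widely, and all of them lay above the HFD ones. Mpc1 fell by 1.34 (SE 0.28, adjusted p = 0.00418, edgeR). Its partner Mpc2 (−0.72, SE 0.23, adjusted p = 0.0588) did not pass. Of the subunits, Dlat was at 80.3, 75.2, 128, 136 and 72.04 CPM on chow and at 54.2, 46.7, 60.2, 45.3 and 60.8 CPM on HFD, and the groups did not overlap. Dlat fell by 1.09 (SE 0.26, adjusted p = 0.0110). Pdhb averaged 583 ± 247 CPM (SD, n = 5) on chow and 324 ± 40.5 CPM on HFD and fell by 1.07 (SE 0.26, edgeR adjusted p = 0.0145). Pdha1 averaged 528 ± 201 CPM on chow and 343 ± 49.7 CPM on HFD and fell by 0.84 (SE 0.25, edgeR adjusted p = 0.0402). Both overlapped between the groups: chow replicate 2 lay within the HFD range for Pdhb, and chow replicates 2 and 5 did for Pdha1. Pdhx (−0.71, SE 0.24, adjusted p = 0.0777), Pdk2 (−0.61, SE 0.29, adjusted p = 0.235) and Pdk4 (−0.72, SE 0.47, adjusted p = 0.414) did not pass.

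In trained mice the diet comparison in scWAT called 6 of 9 members, all lower on HFD, where 5.16% of genes were called (2.01% lower). Pdk1 was at 63.2, 50.6, 30.5, 36.0 and 42.3 CPM on chow and at 20.7, 20.0, 19.2, 16.7 and 21.3 CPM on HFD. These groups did not overlap, as for 9.65% of all genes tested. Pdk1 fell by 1.43 (SE 0.25, adjusted p = 0.00106, edgeR). Mpc1 averaged 2972 ± 1112 CPM (SD, n = 5) on chow and 1554 ± 278 CPM on HFD, with overlap, and fell by 1.20 (SE 0.28, edgeR adjusted p = 0.0124). Pdhb fell by 0.96 (SE 0.26), Pdha1 by 0.89 (SE 0.25), Dlat by 0.88 (SE 0.26) and Mpc2 by 0.77 (SE 0.23), with adjusted p from 0.0340 to 0.0481, and all 4 overlapped between the groups.

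The scWAT calls differ in how firmly they hold. Pdk1 and Mpc1 were called in each of the 20 fits without 1 library, in both diet comparisons. In sedentary mice, Pdhb was lost without HFD sedentary replicate 5 (adjusted p = 0.0501) and Dlat without chow sedentary replicate 4 (adjusted p = 0.0505). Pdha1 was lost without chow sedentary replicate 3 or 4, any of the 5 HFD sedentary replicates, or HFD trained replicate 1 or 3 (log2 −0.91 to −0.56, adjusted p up to 0.129). In trained mice, Pdha1 and Pdhb were each lost without chow trained replicate 1 or 2 or HFD trained replicate 1, 3, 4 or 5 (adjusted p up to 0.103 and 0.0962). Dlat was lost in 12 and Mpc2 in 14 of the 20 such fits (adjusted p up to 0.121 for each), among them those without chow trained replicate 1, 2, 3 or 5, HFD trained replicate 1, 2, 4 or 5 and HFD sedentary replicate 1, 2, 3 or 5. For Mpc2 they also included those without chow sedentary replicate 4 or 5. Within the inferred run of 11 scWAT libraries, 3 members were called in each comparison. Within that of 9, with 2 or 3 mice a group, no member was called (Pdk1 at −1.61 in sedentary mice, adjusted p = 0.135, edgeR). There 0 of all genes were called in either comparison, so the missing calls say nothing of the members.

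Brown and beige fat genes moved with these scWAT groups. The 9 genes of that list held 0.130% to 0.405% of counts in chow sedentary, 0.151% to 0.403% in chow trained, 0.0246% to 0.119% in HFD sedentary and 0.0484% to 0.259% in HFD trained libraries, with at most 3 of the 9 at 0 in a library. The summed counts of its defining genes Ucp1, Cidea and Elovl3 ranged from 139 to 987 among sedentary mice on chow and from 14 to 73 among those on HFD. With that sum as a covariate, an alternative chosen after seeing the data, Pdk1 alone stayed called of the 5 members in sedentary mice. The others were then at −0.91 for Mpc1 (adjusted p = 0.499), −0.54 for Pdhb (0.772), −0.46 for Dlat (0.818) and −0.20 for Pdha1 (0.956), as adjusted p values of edgeR. The beige sum itself moved with diet, so this fit cannot tell diet and beige fat content apart. The share of all genes called in this fit is not given here, so the lost calls cannot be read as particular to these members. The 6 libraries with lymphocyte counts were all from chow-fed mice, and without them all 5 members stayed called in sedentary mice. Without the 6 libraries rich in muscle genes, Pdk1, Dlat and Mpc1 stayed called in sedentary mice, and Pdha1 (adjusted p = 0.0943) and Pdhb (0.0677) did not.

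In vWAT, 4 of 9 members were lower on HFD in sedentary mice and none was higher, where 8.07% of 6990 genes were called (4.15% lower). Pdha1 was at 338, 319, 473, 370 and 244 CPM on chow and at 215, 232, 224, 199 and 197 CPM on HFD. The groups did not overlap, as for 9.37% of all genes tested, with all HFD libraries between 197 and 232 CPM. Pdha1 fell by 0.91 (log2, SE 0.15, adjusted p = 1.28e-04, edgeR). Mpc1 was at 2198, 1936, 3238, 2512 and 1339 CPM on chow and at 1126, 1227, 1226, 1219 and 951 CPM on HFD, with no overlap. It fell by 1.17 (SE 0.20, adjusted p = 5.78e-04). Pdhb averaged 421 ± 160 CPM (SD, n = 5) on chow and 216 ± 21.9 CPM on HFD, and chow replicate 5 lay among the HFD values. Pdhb fell by 1.17 (SE 0.27, edgeR adjusted p = 0.00910). Pdk1 averaged 22.0 ± 8.77 CPM on chow and 11.7 ± 2.54 CPM on HFD, with overlap, and fell by 1.10 (SE 0.32, edgeR adjusted p = 0.0290). Dlat (−0.35, SE 0.25, adjusted p = 0.482), Pdhx (−0.42, SE 0.19, adjusted p = 0.191), Mpc2 (−0.46, SE 0.23, adjusted p = 0.285), Pdk2 (−0.93, SE 0.32, adjusted p = 0.0745) and Pdk4 (0.45, SE 0.29, adjusted p = 0.424) did not pass.

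In trained mice, 3 of the 9 members were lower on HFD in vWAT, where 2.62% of genes were called (1.42% lower), and for each of them the groups did not overlap, as for 6.07% of all genes tested. Pdk1 was at 24.4, 46.9, 23.4, 39.5 and 50.0 CPM on chow and at 16.7, 7.41, 12.4, 20.5 and 22.1 CPM on HFD, and fell by 1.38 (SE 0.29, adjusted p = 0.00443, edgeR). Pdha1 was at 549, 485, 392, 338 and 478 CPM against 278, 264, 256, 310 and 293 CPM, and fell by 0.85 (SE 0.15, adjusted p = 4.24e-04). Mpc1 was at 2979, 2909, 1908, 1747 and 3328 CPM against 1689, 1456, 1271, 1432 and 1532 CPM, and fell by 0.98 (SE 0.20, adjusted p = 0.00565).

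Leaving out 1 vWAT library ended 1 of these 7 calls: Pdk1 in sedentary mice was lost without chow sedentary replicate 3 or 4 or HFD sedentary replicate 2 or 5 (−1.05 to −0.87, adjusted p up to 0.137). The inferred run of 12 vWAT libraries holds all 4 groups, with 2 chow sedentary and 4 HFD sedentary libraries. No member was called there for diet in sedentary mice: Pdha1 was at −0.65 (adjusted p = 0.0655, edgeR) and Mpc1 at −0.84 (adjusted p = 0.139). The small chow sedentary group limits what could be detected. Over all genes, no alternative called fewer than 37 in this comparison. The other vWAT libraries lay in an inferred run of chow-fed mice only (3 sedentary, 2 trained) or of HFD-fed mice only (1 sedentary, 2 trained). Diet and inferred run therefore cannot be fully told apart in vWAT. Macrophage genes moved with diet in this depot, with 853 to 4125 summed counts of 10 genes in HFD sedentary, 476 to 661 in chow sedentary, 506 to 1068 in HFD trained and 280 to 668 in chow trained libraries and none of the 10 at 0. With the macrophage sum as a covariate, an alternative chosen after seeing the data, Pdha1 stayed called in both diet comparisons. Mpc1 was then at −1.02 (adjusted p = 0.160), Pdhb at −1.28 (0.226) and Pdk1 at −0.72 (0.620) in sedentary mice. In trained mice Mpc1 was at −0.90 (0.0613) and Pdk1 at −1.19 (0.0696). Over all genes this covariate took the calls from 564 to 37 in sedentary and from 183 to 109 in trained mice. The macrophage sum itself moved with diet, so this fit cannot tell diet and macrophage content apart. The 10 adipocyte genes held 4.74% to 5.97% of counts in HFD sedentary and 5.72% to 6.88% in chow sedentary vWAT.

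**Figure D4:**
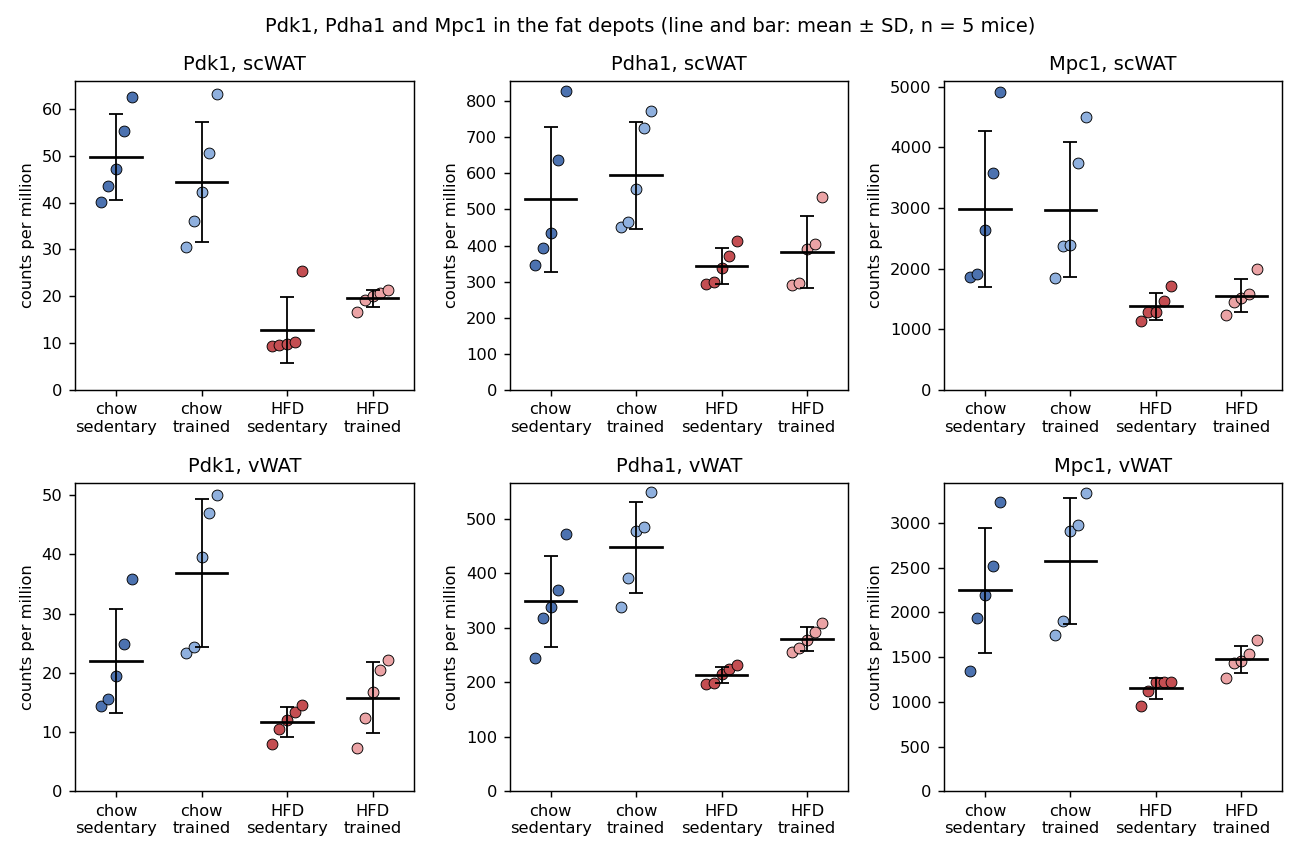
Pdk1, Pdha1 and Mpc1 in scWAT (top) and vWAT (bottom) in CPM (y axes, from 0, a separate scale in each panel) by diet and activity (x axis). Points are mice, lines and bars are the mean ± SD of 5 mice. Pdk1 in scWAT lies at 30.5 to 63.2 CPM in chow-fed and at 9.36 to 25.5 CPM in HFD-fed mice.

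Training changed 1 member in fat. In vWAT of HFD-fed mice Pdk4 was at 62.7, 43.5, 51.2, 29.0 and 94.2 CPM in sedentary and at 12.1, 23.7, 14.0, 29.3 and 39.1 CPM in trained mice. The groups overlapped, with sedentary replicate 4 below trained replicates 4 and 5. Pdk4 fell by 1.19 (log2, SE 0.30, adjusted p = 0.0269, edgeR), 1 call among 9 members where 3.09% of 6990 genes were called (1.87% lower). Leaving out replicate 1 or 5 of the HFD sedentary mice, or replicate 1, 2 or 3 of the HFD trained mice, ended the call (−1.18 to −0.93, adjusted p up to 0.123). It held within the inferred run of 12 libraries and without the libraries with intestinal genes, and was lost with the macrophage sum as a covariate (−0.88, adjusted p = 0.497). That covariate took the calls over all genes from 216 to 10. On chow Pdk4 was at −0.45 (SE 0.32, adjusted p = 0.807) in vWAT.

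In scWAT, Pdk4 was at 110, 158, 260, 82.3 and 52.0 CPM in chow trained mice against 272, 232, 278, 396 and 328 CPM in chow sedentary mice. Trained replicate 3 was the only one to reach the sedentary range, and it is the scWAT library with the most muscle-gene counts (10.1%). In triceps of chow trained mice Pdk4 stood at 254 to 553 CPM. The part of muscle-gene counts in the Pdk4 level of that scWAT library was not tested. The difference between trained and sedentary scWAT was −1.002 with an SE of 0.47 (adjusted p = 0.903, edgeR) on chow. On HFD it was −0.94 with an SE of 0.48 (adjusted p = 0.493), so neither passed. On chow the value was −1.52 without that library (adjusted p = 0.508) and −1.12 without the 6 libraries rich in muscle genes (adjusted p = 0.998). No member was called for training in scWAT, where 0% of 7069 genes were called on chow (376 at an unadjusted p under 0.05) and 1% on HFD. The SE of Pdk4 was above that of each other member in both of these scWAT comparisons.

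In vWAT, 3 genes did not overlap between HFD sedentary and HFD trained mice without being called: Pdha1 (197 to 232 against 256 to 310 CPM; 0.45, SE 0.15, adjusted p = 0.0973), Pdhb (194 to 239 against 281 to 352 CPM; 0.58, SE 0.27, adjusted p = 0.313) and Mpc1 (951 to 1227 against 1271 to 1689 CPM; 0.42, SE 0.19, adjusted p = 0.313). Of all 6990 genes tested, 4.33% did not overlap in that comparison. Dlat on chow was another (24.1 to 48.4 against 48.5 to 70.9 CPM; 0.58, SE 0.24, adjusted p = 0.463), where 1.7% of genes did not overlap and 0.587% were called. Pdhx in scWAT on HFD (42.0 to 54.2 against 55.1 to 90.0 CPM; 0.51, SE 0.24, adjusted p = 0.417) was the remaining training case in fat, where 3.13% of genes did not overlap.

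**Figure D5:**
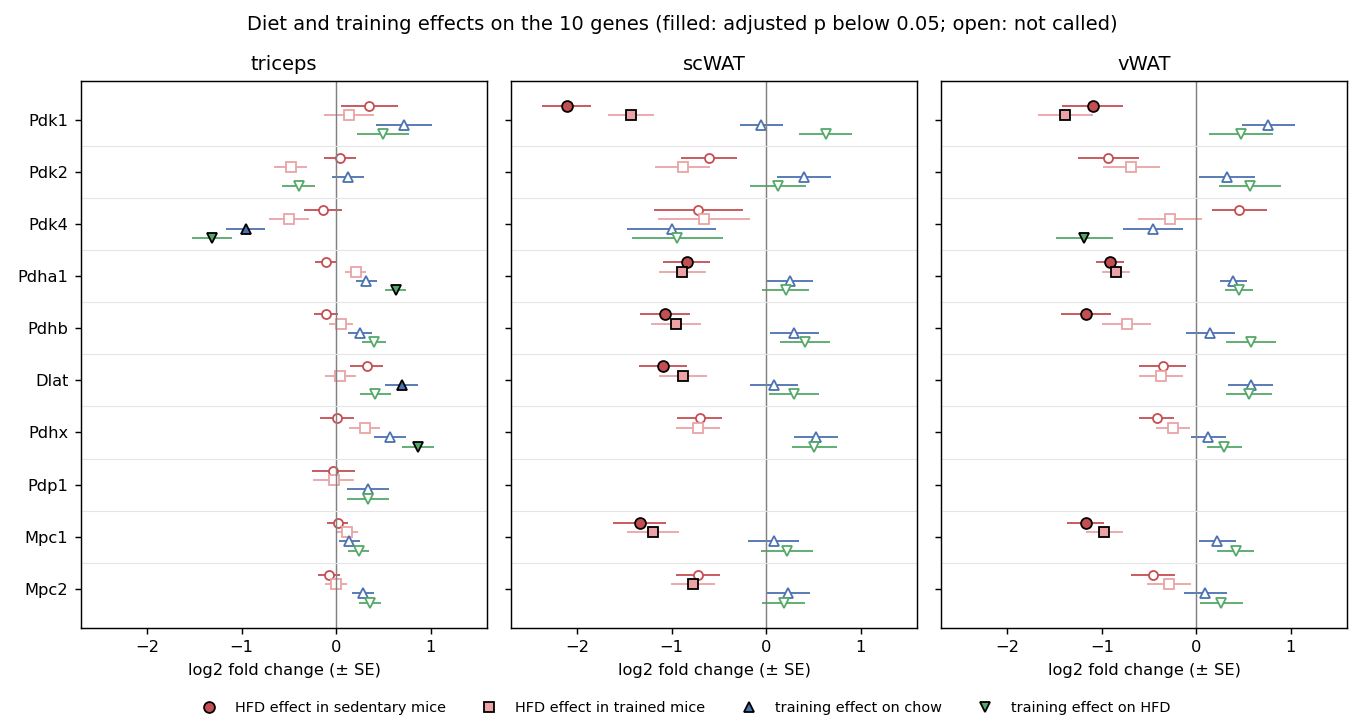
Log2 fold change ± SE (x axis) of each member (y axis) for diet and training in triceps, scWAT and vWAT. Filled symbols passed an adjusted p of 0.05 and open ones did not; Pdp1 was not tested in fat. Called diet effects lie on the left in both fats (−2.11 to −0.77), and in triceps called training effects lie on the left for Pdk4 (−1.32 and −0.96) and on the right for Pdha1, Pdhx and Dlat (0.63 to 0.86).

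The diet effects were compared between tissues in the joint fit of all libraries with the animal as a block. In sedentary mice the HFD effect on Pdk1 was 2.51 higher in triceps than in scWAT (log2, SE 0.41, adjusted p = 1.33e-04), where 1.84% of 8501 genes differed, and Dlat (1.38, SE 0.33, adjusted p = 0.0125) and Mpc1 (1.23, SE 0.28, adjusted p = 0.00878) differed too. In trained mice 4 members differed between triceps and scWAT, where 1.22% of genes did: Pdk1 (1.54, SE 0.38, adjusted p = 0.0220), Mpc1 (1.25, SE 0.28, adjusted p = 0.0108), Pdha1 (1.08, SE 0.24, adjusted p = 0.0110) and Pdhx (1.00, SE 0.26, adjusted p = 0.0339), by edgeR. Against vWAT, the difference passed for Mpc1 in sedentary mice (1.10, SE 0.28, adjusted p = 0.0379), where 0.8% of genes differed, and for Pdha1 in trained mice (1.01, SE 0.24, adjusted p = 0.0391), where 0.318% did. Several of these differences rested on single animals. Against scWAT in sedentary mice, Dlat was lost without chow sedentary replicate 3 or 4 (adjusted p up to 0.0693) and Mpc1 without replicate 3 (0.0705). Against scWAT in trained mice, Pdk1 was lost without chow trained replicate 1 or 2 or HFD trained replicate 1 or 5 (up to 0.119), Pdha1 without chow trained replicate 2 or HFD trained replicate 5 (up to 0.0804) and Mpc1 without chow trained replicate 1 (0.0510). Pdhx was lost there without chow trained replicate 1 or 2 or HFD trained replicate 1, 3, 4 or 5 (up to 0.159). Against vWAT, Mpc1 was lost without chow sedentary replicate 1, 3 or 4, HFD trained replicate 3 or HFD sedentary replicate 2, 3, 4 or 5 (up to 0.224). Pdha1 was lost against vWAT without chow sedentary replicate 1, chow trained replicate 1, 2 or 5, HFD trained replicate 1, 2, 3 or 5 or HFD sedentary replicate 2 or 3 (up to 0.177). Without the animal as a block, these were at 1.20 (adjusted p = 0.0570) for Mpc1 and 1.04 (adjusted p = 0.112) for Pdha1. No member's HFD effect passed the test between the 2 fat depots, where 1.64% (sedentary) and 0.506% (trained) of genes did. No member's training effect passed between any pair of tissues; the shares of genes that did were 0.0235% and 0.4% (chow, HFD) for triceps minus scWAT, 0% and 0.306% for triceps minus vWAT and 0% and 0.0118% for vWAT minus scWAT. For no member did the diet by training interaction pass, where 0% of genes did in scWAT and triceps and 0.0143% in vWAT. In the edgeR fits behind these shares of 0%, the genes with an unadjusted p under 0.05 numbered 449 for training on chow between triceps and vWAT, 305 between vWAT and scWAT, 438 for the interaction in scWAT and 226 in triceps.

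Genes next to these in the pathway were taken from a list of 27 (Dld, other kinases and phosphatases, lactate dehydrogenases, monocarboxylate transporters, citrate synthase and export, and amino-group exchange). For training on HFD in triceps, 3.33% of all genes were called higher and 2.02% lower. In that comparison 4 of the 15 list genes tested rose and 1 fell, with a median of 0.08. Among them were the aspartate aminotransferase Got2 (0.86, SE 0.14, adjusted p = 1.04e-04), the lipoamide dehydrogenase Dld of the same complex (0.60, SE 0.15, adjusted p = 0.00829) and the alanine aminotransferase Gpt (1.29, SE 0.33, adjusted p = 0.0134). The malic enzyme Me1 fell by 1.03 (SE 0.21, adjusted p = 0.00215), by edgeR. Of 15 citric acid cycle enzymes, which take up the acetyl-CoA, 7 rose and none fell (median 0.39, against −0.01 over all genes tested), led by the succinate dehydrogenase subunits Sdhb (0.74, SE 0.14) and Sdhd (0.57, SE 0.12). On chow, where 0.454% of all genes were called higher, 1 gene of each list rose. These were Got2, by 0.60 (SE 0.14, adjusted p = 0.0164), and the succinyl-CoA ligase subunit Suclg2, by 0.87 (SE 0.20, adjusted p = 0.0175).

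Fasting and forkhead target genes, among which Pdk4 is commonly counted, were followed as a list of 37 others. In triceps, 3 of the 23 tested fell with training on chow and none rose, where 0.295% of all genes were called lower. They were the muscle ubiquitin ligases Fbxo32 (−1.43, SE 0.23, adjusted p = 0.00323) and Trim63 (−1.18, SE 0.25, adjusted p = 0.0159) and the uncoupling protein Ucp3 (−0.91, SE 0.22, adjusted p = 0.0273). On HFD, 4 fell and 4 rose, with a median of −0.03, where 2.02% of all genes were called lower and 3.33% higher. Those that fell included Angptl4, an inhibitor of lipoprotein lipase (−2.18, SE 0.38, adjusted p = 3.59e-04), Trim63 (−1.34, SE 0.25, adjusted p = 0.00135) and Fbxo32 (−1.25, SE 0.22, adjusted p = 0.00164), while the carnitine carrier Slc25a20 rose (1.00, SE 0.20, adjusted p = 0.00211). In vWAT, 1 of the 26 tested fell with training on chow and none rose, where 0.315% of all genes were called lower. On HFD 3 fell and 1 rose, where 1.87% of all genes were called lower and 1.22% higher. Angptl4 fell on both diets (−0.84, SE 0.13, adjusted p = 2.44e-04 on chow; −0.94, SE 0.13, adjusted p = 3.20e-05 on HFD), by edgeR. The cell cycle inhibitor Cdkn1a (−2.38, SE 0.42, adjusted p = 0.00305) and the uncoupling protein Ucp2 (−0.95, SE 0.23, adjusted p = 0.0171) fell on HFD, while Pparg, the fat cell nuclear receptor, rose (0.57, SE 0.13, adjusted p = 0.0101). In scWAT, Cdkn1a fell with training on HFD (−2.08, SE 0.37, adjusted p = 0.00510, edgeR), where 0.297% of all genes were called lower.

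In the fats a minority of the neighbouring pathway genes passed the test for diet, all of them lower on HFD. In scWAT of sedentary mice 5 of 19 tested genes of the pathway list fell and none rose (median −0.53, against −0.05 over all genes), where 2.8% of all genes were called lower, with the citrate cleavage enzyme Acly at −3.51 (SE 0.57, adjusted p = 0.00144), Me1 at −2.13 (SE 0.43, adjusted p = 0.00555) and the citrate carrier Slc25a1 at −1.67 (SE 0.35, adjusted p = 0.00722). In vWAT 5 of 18 fell and none rose (median −0.47, against −0.01), where 4.15% of all genes were called lower, with pyruvate carboxylase Pcx at −1.10 (SE 0.20, adjusted p = 8.87e-04) and Acly at −2.69 (SE 0.57, adjusted p = 0.00657). Of the 15 citric acid cycle enzymes, 4 fell in scWAT and 7 in vWAT, and none rose in either. In trained mice 4 and 5 genes of the pathway list fell on HFD in scWAT and vWAT, and 0 and 1 of the cycle enzymes, where 2.01% and 1.42% of all genes were called lower.

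Genes with the level pattern most like Pdk4 were named in each tissue by Pearson's r of log2 CPM over its 20 libraries, as a description, since these libraries share depth and the group differences above. In triceps they included Ramp1 (r = 0.905), Tceal7 (0.840), Ucp3 (0.835) and Nrep (0.800). After subtraction of the group means these r values were 0.183 to 0.486. In vWAT they were Mbnl2 (0.768), Lctl (0.734), Angptl4 (0.719), Sparc (0.715) and Colgalt1 (0.714), and in scWAT Zbtb8os (0.742), Wdr37 (0.706), Mrpl23-ps1 (0.705), Ei24 (0.691) and the monocarboxylate transporter Slc16a1 (0.683). Among the members, Pdhx (−0.743), Dlat (−0.717) and Pdha1 (−0.681) ran most against Pdk4 in triceps, and within the groups their r was 0.0824, −0.131 and 0.372.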

How the data were processed

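Triceps, scWAT and vWAT of 20 mice gave 60 libraries. The authors deposited estimated counts per gene, rounded to whole numbers, and log2(CPM + 1) values in the same table; the latter were used only to check the unit. Salmon 0.14.2 and mm10 were used per the submitters' processing notes; the sources used here do not give strand or molecular-identifier settings. Samples were grouped by diet and activity from the labels, 5 mice a group. The count test was edgeR 4.0.16 (R 4.3.3, limma 3.58.1): TMM, filterByExpr by group, robust quasi-likelihood fit per tissue (7069, 6990 and 4410 genes tested in scWAT, vWAT and triceps), Benjamini-Hochberg adjustment, call below 0.05. Tissue differences used 1 fit of 8501 genes with the animal, named in the titles, as a block. The scripts were tested on simulated data. Of 120 pairs of libraries within groups, 0 were identical. CPM, ratios and limits of detection cover counting error only.

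The members and lists were chosen with earlier results of these data known. Text names all 10 members, up to 4 called genes per list and comparison with the lowest adjusted p, and the 5 genes most like Pdk4 in each tissue, of which 1 is not reported here. Library runs were inferred: they are stretches of 12 consecutive library codes in the column names, with limits placed where reads of other organs changed, and no label or header names them. Outside the run of 12 in vWAT and in triceps, each inferred run held libraries of 1 diet only within that tissue. Alternatives were DESeq2 1.42.0, other scalings, no filter, the replicate number as a block, runs, and libraries left out; covariates for beige fat and macrophage genes were chosen after seeing the data. Promoters are from RefSeq (GRCm38.p6), gene positions from the mm10 annotation.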

Additional observations from a re-analysis of the deposited data

Results flagged for a closer look

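Single mice stood far from the other 4 of their group in 7 of the 120 groups of 5 examined; chance alone gives about 5% of groups. Pdk1 in scWAT was at 25.5 CPM in HFD sedentary replicate 2, with the others at 9.36 to 10.3 CPM. Pdha1 in triceps was at 358 CPM in HFD sedentary replicate 1, with the others at 439 to 464 CPM. Dlat in vWAT was at 24.1 CPM in chow sedentary replicate 1, with the others at 42.3 to 48.4 CPM. Pdhx was far in 3 groups: 40.8 CPM in triceps of chow sedentary replicate 1 (others 56.8 to 63.2), 126 CPM in triceps of HFD trained replicate 5 (others 81.4 to 94.1) and 90.0 CPM in scWAT of HFD trained replicate 2 (others 55.1 to 62.5). Pdp1 in triceps was at 19.4 CPM in HFD trained replicate 2, with the others at 42.2 to 47.7 CPM.

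The HFD effect differed between tissues for 9 pairs of member and comparison in the joint edgeR fit. In sedentary mice, triceps minus scWAT was 2.51 for Pdk1 (effects 0.35 and −2.11), 1.38 for Dlat (0.32 and −1.09) and 1.23 for Mpc1 (0.02 and −1.34). In trained mice it was 1.54 for Pdk1 (0.14 and −1.43), 1.08 for Pdha1 (0.21 and −0.89), 1.00 for Pdhx (0.30 and −0.72) and 1.25 for Mpc1 (0.12 and −1.20). Triceps minus vWAT was 1.10 for Mpc1 in sedentary mice (0.02 and −1.17) and 1.01 for Pdha1 in trained mice (0.21 and −0.85). The effects in parentheses come from the fits of each tissue alone.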

How the results depend on the processing

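No called member reversed under any alternative that was run. Among refits of called values 1268 stayed called and 182 did not, and among refits of values that were not called 6228 stayed so and 56 became called. The joint fit was not repeated with total counts. On that scaling, mean CPM put Pdha1, Pdhb and Pdhx lower in triceps than in scWAT of sedentary chow-fed mice. Counts of members called moved as follows. For HFD in sedentary mice in scWAT (5 called) they were 0 in the run of 9 libraries, 3 in the run of 11, 1 with the beige covariate and 3 to 7 without 1 library. For HFD in trained mice in scWAT (6) they were 2 with total counts, 0 in the run of 9, 3 in the run of 11, 2 without libraries over 1% muscle counts, 2 with the beige covariate and 2 to 7 without 1 library. In vWAT they were 0 in the run of 12, 1 with the macrophage covariate and 3 to 5 without 1 library for HFD in sedentary mice (4), 1 with that covariate and 3 to 4 without 1 library for HFD in trained mice (3), and 0 with it and 0 to 1 without 1 library for training on HFD (1). In triceps they were 1 without a filter, 4 by DESeq2, 1 with total counts, 0 in the run of 12 and 0 to 2 without 1 library for training on chow (2), and 5 by DESeq2, 5 with the run as a factor and 3 to 5 without 1 library for training on HFD (3). Both covariates were chosen after seeing the data and themselves moved with diet. With Pdp1, for which no tissue difference is reported, counted in, tissue differences without 1 animal called 7 to 8 (triceps minus scWAT), 8 to 9 (triceps minus vWAT) and 3 to 5 members (vWAT minus scWAT; 3 without a filter). Differences in the HFD effect called 1 to 3 (sedentary) and 1 to 5 (trained) for triceps minus scWAT, 0 to 2 for each for triceps minus vWAT (2 without a filter in sedentary mice) and 0 to 1 for vWAT minus scWAT in sedentary mice (1 without a filter). The other comparisons called 0 members throughout.

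With the replicate number as a block, the members called were 6 and 7 for HFD in scWAT (sedentary, trained), 4 and 3 in vWAT, 1 for training on HFD in vWAT, 2 and 4 for training in triceps (chow, HFD) and 0 elsewhere. The labels do not say that these numbers pair mice of different groups. After subtraction of group means, same-numbered libraries correlated above 0.1 in 16 of 30 pairs in scWAT, 11 of 30 in vWAT and 7 of 30 in triceps. Their median r was 0.133 in scWAT, 0.0337 in vWAT and 0.029 in triceps. For other pairs it was −0.0573, −0.0110 and −0.00570, so some deviation was shared by number in scWAT. Without the animal as a block, the tissue differences, Pdp1 included, called 7, 8 and 5 members, and the differences in the HFD effect 3 and 4 (triceps minus scWAT) and 0 and 0 (triceps minus vWAT).

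Counts over all genes moved beyond 1.5 times: for HFD in sedentary mice from 449 to between 0 and 894 in scWAT and from 564 to between 37 and 894 in vWAT, for HFD in trained mice from 365 to between 0 and 822 and from 183 to between 109 and 341, for training on HFD from 71 to between 0 and 199 in scWAT, from 216 to between 10 and 357 in vWAT and from 236 to between 121 and 429 in triceps, and for training on chow from 41 to between 6 and 83 in vWAT and from 33 to between 14 and 100 in triceps. Without a filter on low counts, HFD called 24 (sedentary) and 2 (trained) genes in triceps in place of 0, training on chow 30 in scWAT in place of 0, and the interaction 58 in scWAT in place of 0 and 34 in vWAT in place of 1. In the joint fit, differences in the HFD effect are given for sedentary and then trained mice. For triceps minus scWAT they went from 156 to between 81 (without chow sedentary replicate 2) and 251 and from 104 to between 36 (without HFD trained replicate 5) and 363. For triceps minus vWAT they went from 68 to between 20 (without HFD sedentary replicate 5) and 188 and from 27 to between 3 (without the animal as a block) and 143. For vWAT minus scWAT they went from 139 to between 42 (without chow sedentary replicate 2) and 430 and from 43 to between 2 (without libraries rich in muscle genes) and 352. Differences in the training effect went from 2 to between 0 and 131 (chow) and from 34 to between 17 and 227 (HFD) for triceps minus scWAT, from 0 to 21 and from 26 to between 5 and 98 for triceps minus vWAT, and from 0 to 36 and from 1 to between 0 and 135 for vWAT minus scWAT. The highest values of these joint counts came without a filter. The tissue difference of vWAT minus scWAT went from 996 to 594 without chow sedentary replicate 2. No vWAT library held over 1% muscle counts, so that alternative was not run there. Pdk1 in fat and triceps, and Pdp1 in fat, rest on so few counts that changes under their counting error were not detectable.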

Other observations

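Because each mouse gave all 3 tissues, the deviations of Pdk4 from its group means could be set side by side over the 20 animals. Pearson's r was −0.458 between scWAT and vWAT (Spearman's rho −0.429), 0.319 between scWAT and triceps (rho 0.185) and 0.210 between vWAT and triceps (rho 0.177). These are descriptions over animals that share group, inferred library run and depth, and no test was made.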
